A study of Ursus arctos with 12 samples.

Results

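The E2 ubiquitin-conjugating enzymes of brown bear muscle were compared between hibernation and the active period. Members were the genes whose symbol starts with UBE2 and which had 30 or more reads summed over all libraries. All 32 UBE2 symbols that the counts list passed this limit, among 30249 genes listed and 17290 that passed it. The 12 libraries came from vastus lateralis biopsies, a thigh muscle, of 6 free-ranging brown bears (Ursus arctos) aged 2 to 3 years. Each bear was captured under anaesthesia in February, while hibernating (winter, n = 6), and again in June of the same year, while active (summer, n = 6). Feeding, activity, body temperature and month therefore differ together between the groups and cannot be told apart. Poly-A RNA was sequenced, and 16742406 to 32140160 reads per library were counted on genes.

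Ubiquitin is handed along a chain of enzymes. An E1 activates it, an E2 carries it as a thioester on a cysteine, and an E3 ligase brings the charged E2 to the protein that is to be marked. The E2 largely sets which kind of chain is built: chains through Lys48 send proteins to the proteasome, and chains through Lys63 serve signalling and sorting. Some E2 enzymes carry ubiquitin-like modifiers such as SUMO, NEDD8 or ISG15 instead. In skeletal muscle this system takes apart contractile proteins, and the E2 enzyme UBE2B is among those long studied in muscle wasting.

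Levels are given as CPM, the reads of a gene scaled to a library size common to all samples by TMM. They are compared between seasons and not between genes, since CPM takes no account of transcript length. The seasons were compared by the quasi-likelihood test of edgeR, blocked by bear. This test, adjusted over all genes tested, stands behind every adjusted p unless another fit is named. A gene was called at an adjusted p below 0.05. Since these are whole biopsies, fewer cells of a type and less RNA per cell cannot be told apart. One winter library stood apart, that of bear 1509, with a score of −98.6 on the second principal component where the other 5 scored 6.35 to 23.1. Muscle fibre transcripts were abundant in both seasons. The 10 of 12 fibre markers that were listed summed to at least 114049 CPM in every library, and 1 of them rose while 3 fell.

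The E2 enzymes differed between the seasons in both directions, mostly by small steps. Of the 32 members, 8 were higher and 5 were lower in winter, which is 25.0% and 15.6% of them. Among all genes tested, 19.6% were called higher and 21.2% lower, so the share of members called, 40.6% against 40.8%, was that of the background. The median size of the change was 0.31 on the log2 scale (1.24-fold) over the members and 0.46 (1.37-fold) over all genes tested. More than 1 log2 unit was reached by 2 members (6.25%), against 20.8% of all genes. These were UBE2C and UBE2T, with 179 and 100 reads summed over the libraries. The sizes were not compared at equal read depth. With the study's limits for a differentially expressed gene, which ask for an adjusted p below 0.01 and for more than 1.3 or less than 0.77 times the summer level, 4 members were higher (12.2% of all genes) and 2 were lower (13.4%). The winter libraries lay wholly above the summer libraries for 4 members (9.12% of all genes) and wholly below them for 2 (8.21%).

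**Figure D1:**
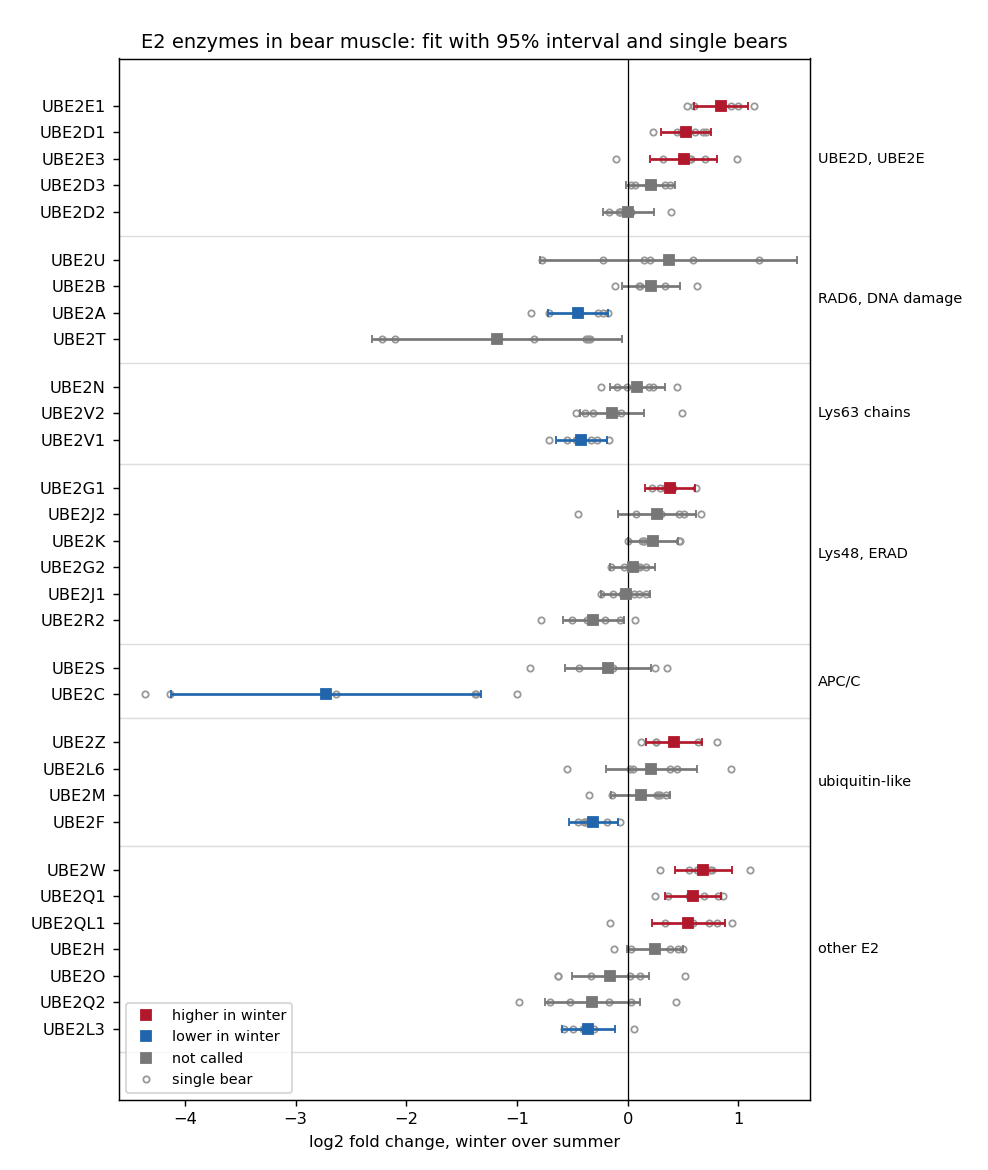
The winter over summer log2 fold change of 31 of the E2 enzymes, by role, with squares and bars for the fit and its 95% interval, and open circles for the 6 single bears (log2 CPM with a prior count of 2). UBE2E1 and UBE2W stand furthest to the right and UBE2C furthest to the left, and UBE2C and UBE2T alone lie more than 1 log2 unit from 0.

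Summed over the members, the level was 1757 to 2053 CPM in summer (median 1859) and 1892 to 2339 CPM in winter (median 2211). It was higher in winter in 6 of 6 bears, by 0.18 ± 0.12 on the log2 scale (SD, n = 6), with single bears from 0.05 in bear 1511 to 0.40 in bear 1509. Without bear 1509 the mean was 0.14, and with library totals it was 0.10. The summed level is a description with no test, and its seasons overlapped. Members with many reads weigh most in it, such as UBE2G1 (median 229 CPM in summer, 311 in winter) and UBE2B (254 and 329), and UBE2B was not called.

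The UBE2D and UBE2E enzymes work with a wide range of RING ligases. Of the 5 members of this group, 3 were higher and 0 were lower (0 lower also at an unadjusted p below 0.05, in DESeq2 and in limma voom). Over all genes tested, 19.6% were called higher and 21.2% lower, which are the shares to set beside this and every later group or list. UBE2E1 lay between 36.7 and 53.5 CPM over the summer libraries (median 52.2) and between 76.7 and 104 over the winter ones (median 85.2). Every winter library was above every summer library, and the lowest summer level was that of bear 1317 (log2 fold change 0.84, standard error 0.11, adjusted p = 0.000239). Its sister UBE2E3 lay between 40.4 and 66.8 CPM over the summer libraries (median 52.7) and between 62.0 and 92.9 over the winter ones (median 71.7). It rose in 5 of 6 bears, bear 1316 being the exception at −0.11, and the seasons overlapped (log2 fold change 0.51, standard error 0.14, adjusted p = 0.0127). UBE2E2, the remaining UBE2E gene, is listed by a LOC number, so it was no member, and was matched here by its gene ID. It stood at 5.43 in summer and 7.03 CPM in winter, and was not called (0.36, adjusted p = 0.0736).

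UBE2D1 lay between 82.4 and 107 CPM over the summer libraries (median 88.5) and between 96.7 and 162 over the winter ones (median 135). It was higher in 6 of 6 bears, least so in bear 1511, whose winter library was the only one below the highest summer library (log2 fold change 0.53, standard error 0.10, adjusted p = 0.00219). The 2 other UBE2D enzymes were not called. UBE2D2 lay between 59.6 and 74.0 CPM over the summer libraries (median 62.6) and between 56.6 and 78.3 over the winter ones (median 63.1), with 2 of 6 bears higher and a 95% interval of −0.22 to 0.24 on the log2 scale (log2 fold change 0.01, standard error 0.10, adjusted p = 0.96). UBE2D3 lay between 185 and 205 CPM over the summer libraries (median 196) and between 194 and 259 over the winter ones (median 231). It was higher in 6 of 6 bears by 0.03 to 0.39 on the log2 scale and was not called, with a 95% interval of −0.02 to 0.43 (log2 fold change 0.21, standard error 0.10, adjusted p = 0.124). DESeq2 without the bear called UBE2D3 (adjusted p = 0.0291, range 0.0291 to 0.447 across all alternatives).

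**Figure D2:**
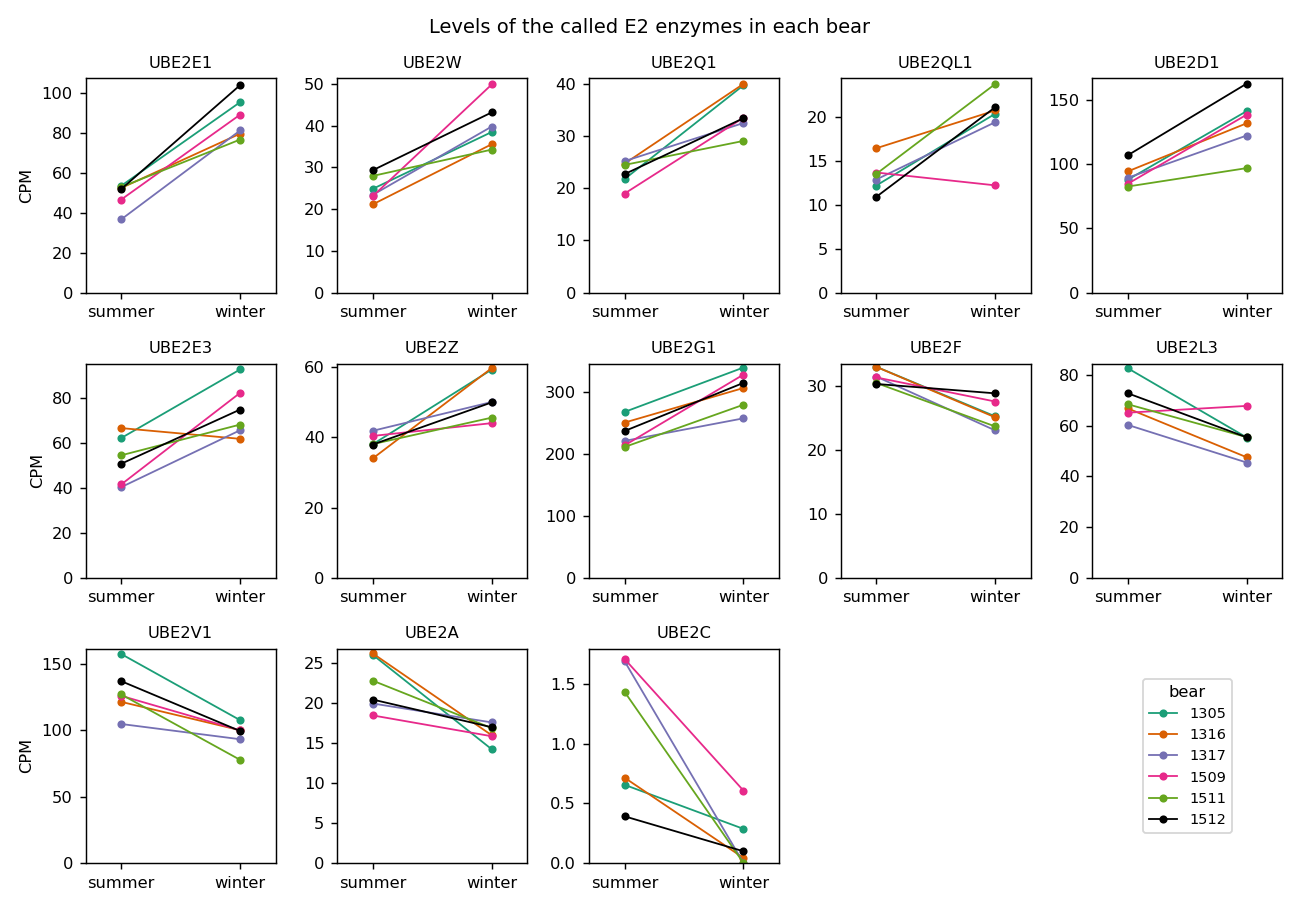
CPM of the 13 called E2 enzymes in summer and winter, with 1 line for each of the 6 bears and every axis starting at 0. The lines of UBE2E1, UBE2W and UBE2Q1 rise in every bear with no overlap of the seasons, while bear 1509 runs against the others for UBE2QL1 and UBE2L3 and bear 1316 for UBE2E3.

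Lys48 chains are built by UBE2G1 and UBE2R2 with cullin ligases and by UBE2K, while UBE2G2, UBE2J1 and UBE2J2 serve the degradation of proteins from the endoplasmic reticulum. Of these 6 members 1 was higher and 0 were lower (1 lower at an unadjusted p below 0.05, 0 in DESeq2 and limma voom with the bear as a block, and 1 in DESeq2 without it). The shares over all genes tested were 19.6% and 21.2%. UBE2G1 lay between 212 and 268 CPM over the summer libraries (median 229) and between 258 and 340.1 over the winter ones (median 311). It was higher in 6 of 6 bears, although bear 1317 in winter stayed below bear 1305 in summer (log2 fold change 0.38, standard error 0.10, adjusted p = 0.0126). Scaled by library totals alone, UBE2G1 was not called (adjusted p = 0.078, range 0.000303 to 0.078 across all alternatives). UBE2G2 stood at 88.6 in summer and 92.2 CPM in winter, with a 95% interval of −0.16 to 0.25 on the log2 scale (0.05, adjusted p = 0.723).

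UBE2R2 had the smallest adjusted p among the members that were not called. It was lower in 5 of 6 bears, at 77.4 in summer and 63.5 CPM in winter (log2 fold change −0.31, standard error 0.12, adjusted p = 0.0672). It was called lower without the replicate block (adjusted p = 0.0285), in DESeq2 without the block (0.0183) and without bear 1509 (0.0323), range 0.0183 to 0.215 across all alternatives. Its close relative CDC34, the founding E2 of the SCF ligases, is not named as a UBE2 gene. CDC34 lay between 113 and 163 CPM over the summer libraries (median 145) and between 63.6 and 120.4 over the winter ones (median 71.5), below the summer level in 6 of 6 bears (log2 fold change −0.87, standard error 0.13, adjusted p = 0.000462).

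Among the E2 enzymes of the endoplasmic reticulum, UBE2J1 lay at 20.2 to 25.8 CPM in summer (median 23.3) against 21.0 to 23.8 in winter (median 22.8). The winter range lay inside the summer range, with 3 of 6 bears higher and a 95% interval of −0.24 to 0.21 on the log2 scale (log2 fold change −0.02, standard error 0.10, adjusted p = 0.91). UBE2J2 was at 7.26 in summer and 9.44 CPM in winter, higher in 5 of 6 bears (0.27, adjusted p = 0.206). Bear 1509 was the exception at −0.45, and without that bear UBE2J2 was called higher (adjusted p = 0.0309, range 0.0309 to 0.425 across all alternatives). UBE2K was at 54.5 in summer and 61.6 CPM in winter, above the summer level in 6 of 6 bears by 0.0013 to 0.47 on the log2 scale, and was not called (0.23, adjusted p = 0.1).

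Lys63 chains need UBE2N together with UBE2V1 or UBE2V2, which resemble an E2 but lack its active cysteine. In this trio the catalytic enzyme was not called and 1 of its cofactors fell. UBE2V1 lay between 105 and 158 CPM over the summer libraries (median 127) and between 77.8 and 108 over the winter ones (median 99.8). All 6 bears had less in winter, most of all bear 1511, and only bear 1305 in winter exceeded the lowest summer library (log2 fold change −0.42, standard error 0.10, adjusted p = 0.00873). UBE2V2 was at 42.2 in summer and 36.4 CPM in winter, lower in 5 of 6 bears and higher by 0.50 in bear 1509 (−0.14, adjusted p = 0.42). UBE2N lay between 38.8 and 48.5 CPM over the summer libraries (median 43.7) and between 41.1 and 60.3 over the winter ones (median 44.4). The seasons overlapped, 3 of 6 bears were higher, and the 95% interval was −0.16 to 0.34 on the log2 scale (log2 fold change 0.09, standard error 0.11, adjusted p = 0.55).

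UBE2A and UBE2B are the mammalian forms of yeast RAD6. They mark histone H2B with RNF20 and RNF40, serve DNA damage tolerance with RAD18 and destroy N-degron proteins with the UBR ligases. UBE2A lay between 18.4 and 26.2 CPM over the summer libraries (median 21.6) and between 14.2 and 17.6 over the winter ones (median 16.4). Every winter library was below every summer library, with the largest falls in bears 1305 and 1316 (log2 fold change −0.45, standard error 0.12, adjusted p = 0.014). UBE2B lay between 245 and 349.9 CPM over the summer libraries (median 254) and between 227 and 379.6 over the winter ones (median 329). It was higher in 5 of 6 bears, with bear 1317 at −0.11 and bear 1509 at 0.63, and was not called (95% interval −0.05 to 0.47; log2 fold change 0.21, standard error 0.12, adjusted p = 0.178). UBE2U had only 1 to 17 reads per library, and its 95% interval of −0.79 to 1.53 on the log2 scale left its direction undetermined at this depth (0.37, adjusted p = 0.6).

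The log2 fold changes furthest from 0 were those of UBE2C and UBE2T, which had few reads. UBE2C and UBE2S build ubiquitin chains for the anaphase-promoting complex. UBE2C had 157 reads over the 6 summer libraries (10 to 39 each, median 27) and 22 over the 6 winter libraries (0 to 11 each, median 2). Bears 1317 and 1511 had 0 reads in winter, and bear 1509, with 11, overlapped the lowest summer library (log2 fold change −2.73, standard error 0.63, adjusted p = 0.00616). UBE2S lay at 5.71 to 13.2 CPM in summer (median 6.99) against 5.46 to 8.36 in winter (median 6.97), lower in 4 of 6 bears and not called (−0.17, adjusted p = 0.454). UBE2T, the E2 of the Fanconi anaemia ligase FANCL, had 71 reads in summer and 29 in winter, with a lower CPM in 6 of 6 bears, and was not called (log2 fold change −1.18, standard error 0.51, adjusted p = 0.0888). Of 10 markers of dividing cells, 8 fell and 0 rose in winter (0 higher at an unadjusted p below 0.05, in DESeq2 and in limma voom), MKI67 by 3.34 and TOP2A by 3.18 on the log2 scale. Their summed level was 16.0 to 53.7 CPM in summer and 7.88 to 23.0 in winter, none of the 10 was at 0 in any library, and their part in the fall of UBE2C was not tested. Bear 1509, whose winter library stood apart on the second principal component, had the highest winter sum of these markers. It also had the most UBE2C in winter, at 11 reads, and a link between these levels was not tested.

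Among the E2 enzymes of ubiquitin-like modifiers, 1 of 5 was higher and 1 lower, near the shares over all genes tested (19.6% and 21.2%). UBE2Z, which the E1 enzyme UBA6 charges with ubiquitin or FAT10, lay between 34.0 and 41.9 CPM over the summer libraries (median 38.1) and between 44.0 and 59.7 over the winter ones (median 50.0). The winter libraries lay above the summer ones without overlap (log2 fold change 0.42, standard error 0.11, adjusted p = 0.0144). Its call was lost without bear 1305 (adjusted p = 0.0574) and with library totals (0.0697), range 0.000223 to 0.0697 across all alternatives.

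UBE2M and UBE2F attach NEDD8 to cullins and so switch cullin ligases on. UBE2M, the main NEDD8 E2, lay at 18.2 to 29.96 CPM in summer (median 22.5) against 18.8 to 30.7 in winter (median 24.6), with 4 of 6 bears higher and a 95% interval of −0.15 to 0.39 on the log2 scale (log2 fold change 0.12, standard error 0.12, adjusted p = 0.466). UBE2F, which acts on CUL5 with RNF7, lay at 30.3 to 33.0 CPM in summer (median 31.4) against 23.0 to 28.8 in winter (median 25.1), lower in 6 of 6 bears with no overlap (log2 fold change −0.31, standard error 0.10, adjusted p = 0.0285). Leaving out bear 1305 gave UBE2F an adjusted p of 0.071, and leaving out bear 1316, 1317 or 1511 gave 0.0692, 0.0742 or 0.0606, range 0.00108 to 0.0742 across all alternatives.

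UBE2L6, the E2 for the interferon-induced modifier ISG15, was at 6.20 in summer and 7.65 CPM in winter, higher in 5 of 6 bears, with bear 1509 at −0.55 and bear 1317 at 0.93 (0.22, adjusted p = 0.375). Of 8 interferon response genes 5 were tested, 0 rose and 3 fell (0 higher at an unadjusted p below 0.05, in DESeq2 and in limma voom), ISG15 among them at −1.43. Their summed level was 155 to 241 CPM in summer and 141 to 192 in winter.

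The remaining 7 members gave 3 rises and 1 fall (over all genes tested, 19.6% and 21.2%). UBE2W, which places ubiquitin on the amino terminus of proteins, lay between 21.1 and 29.3 CPM over the summer libraries (median 24.1) and between 34.2 and 49.8 over the winter ones (median 39.1). It was higher in 6 of 6 bears without overlap, most in bear 1509 at 1.11 and least in bear 1511 at 0.29 (log2 fold change 0.68, standard error 0.12, adjusted p = 0.00116). UBE2Q1 lay between 19.0 and 25.2 CPM over the summer libraries (median 23.6) and between 29.1 and 40.0 over the winter ones (median 33.5). These seasons did not overlap either (log2 fold change 0.59, standard error 0.11, adjusted p = 0.00217). UBE2Q2 was at 6.14 in summer and 4.82 CPM in winter, lower in 4 of 6 bears and not called (−0.32, adjusted p = 0.215).

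UBE2QL1, named for its likeness to the UBE2Q enzymes, lay between 10.9 and 16.4 CPM over the summer libraries (median 13.2) and between 12.2 and 23.7 over the winter ones (median 20.5). It rose in 5 of 6 bears, and the winter library of bear 1509 fell within the summer range (log2 fold change 0.55, standard error 0.15, adjusted p = 0.0131). UBE2H, the partner of the CTLH ligase, was at 136 in summer and 171 CPM in winter, higher in 5 of 6 bears and not called (0.25, adjusted p = 0.105; 95% interval −0.003 to 0.50). UBE2O, a large enzyme that works as E2 and E3 at once and clears proteins from maturing red cells, lay between 20.3 and 31.7 CPM over the summer libraries (median 25.7) and between 18.1 and 29.1 over the winter ones (median 22.1). Bears moved both ways, 3 up and 3 down, from −0.63 to 0.52 on the log2 scale (log2 fold change −0.15, standard error 0.16, adjusted p = 0.456). Erythroid markers, 4 of 8 tested, summed to 3.93 to 67.9 CPM in summer (median 28.1) and 34.4 to 56.8 in winter (median 45.5). Of these, 0 were called higher and 1 lower, EPB42 (0 higher at an unadjusted p below 0.05, in DESeq2 and in limma voom). HBA1 was at 25.0 in summer and 44.8 CPM in winter, higher in 5 of 6 bears and not called (1.22, adjusted p = 0.106, range 0.0222 to 0.268 across all alternatives). AHSP, SLC4A1, EPB42 and HBM were at 0 in 4 to 6 libraries each, and the part of red cells in the level of UBE2O was not tested.

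UBE2L3, which serves HECT and RING-between-RING ligases such as Parkin and ARIH1, lay between 60.4 and 82.7 CPM over the summer libraries (median 67.7) and between 45.5 and 67.9 over the winter ones (median 55.4). It was lower in 5 of 6 bears, while bear 1509 stood at 0.06 and had the highest winter level (log2 fold change −0.35, standard error 0.11, adjusted p = 0.0224). The call was lost without bear 1305 (adjusted p = 0.072), 1316 (0.0602), 1317 (0.0517) or 1512 (0.0637), range 0.00641 to 0.072 across all alternatives. With UBE2F this brought the number of members lower in winter from 5 to 3 when bear 1305, 1316 or 1317 was left out. Without bear 1509 it was 6, and 9 were higher.

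Members with close sequence relatives allowed a comparison within a library that no scaling can alter, the ratio of their reads, although reads that both could give, as in UBE2D2 and UBE2D3, make their split uncertain. This comparison was chosen after the data were seen. In 10 pairs the log2 ratio in winter minus that in summer was taken for each bear and tested by an exact two-sided sign-flip permutation over the 6 bears, whose smallest p is 0.03125. For 5 pairs all bears moved the same way, which gave this smallest p, 0.0625 after adjustment over the 10 pairs. No pair thus passed 0.05 after adjustment. With 6 bears and 10 pairs, that was possible only if most pairs reached the smallest p together. The adjusted values therefore decide nothing about a single pair. The UBE2D pairs share genes, so the pairs are not independent. UBE2Q1 gained on UBE2Q2 by 0.91 ± 0.34 (SD, n = 6), from 0.38 to 1.35. UBE2D1 gained 0.52 ± 0.15 on UBE2D2 and 0.32 ± 0.09 on UBE2D3, and UBE2G1 gained 0.33 ± 0.24 on UBE2G2. The ratio of UBE2A to UBE2B changed by −0.66 ± 0.41. The 5 other pairs had at least 1 bear against the rest, in 4 of them bear 1509.

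**Figure D3:**
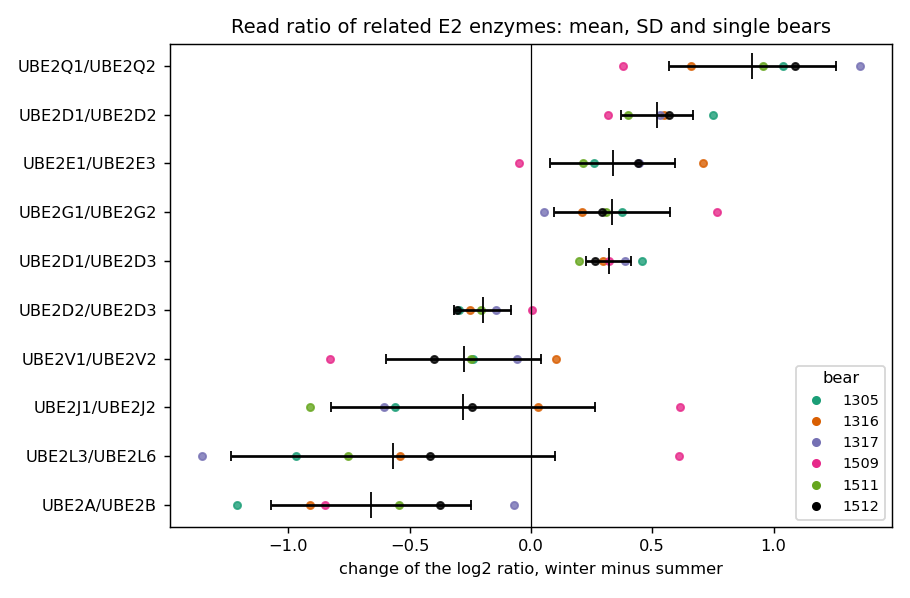
Change of the log2 read ratio between related E2 enzymes from summer to winter in 10 pairs, with a coloured point for each bear and a black tick and bar for the mean and SD of the 6 bears. All 6 bears lie on 1 side of 0 for UBE2Q1/UBE2Q2, UBE2D1/UBE2D2, UBE2D1/UBE2D3, UBE2G1/UBE2G2 and UBE2A/UBE2B.

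The enzymes and modifiers around the E2 step were taken from a list of 62 genes, of which 60 were listed and tested. In winter 14 were higher (23.3%) and 9 were lower, where 19.6% of all genes tested were higher and 21.2% lower. The median log2 fold change of the partners was 0.07, against 0.10 over the E2 members and −0.01 over all genes. With library totals the split of the partners was 9 higher and 10 lower, and without bear 1305 it was 9 and 7. At an adjusted p below 0.05 in every alternative, 15 of the 23 calls held, and the others were UFM1, TSG101, UBR2, RNF20, ARIH1, MARCH6, PIAS2 and AUP1.

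UBA1, the main E1 for ubiquitin, was at 141 in summer and 144 CPM in winter (0.05, adjusted p = 0.729), and UBA6 at 14.8 in summer and 14.8 CPM in winter (0.05, adjusted p = 0.756).

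Among the modifiers, RPS27A, which encodes ubiquitin fused to a ribosomal protein, lay at 537 to 936 CPM in summer (median 714) against 1317 to 2058 in winter (median 1623). All its winter libraries exceeded all its summer libraries (log2 fold change 1.19, standard error 0.15, adjusted p = 0.000173). Ubiquitin coding repeats are nearly the same in sequence between genes, so the share of reads that each received is uncertain. SUMO3 rose in 6 of 6 bears (log2 fold change 0.88, standard error 0.10, adjusted p = 0.000142), whereas SUMO2 (0.22, adjusted p = 0.171) and NEDD8 (−0.23, adjusted p = 0.112) were not called. ISG15 fell (log2 fold change −1.43, standard error 0.36, adjusted p = 0.00894), and so did UFM1 (−0.37, adjusted p = 0.0195; 0.015 to 0.0861 over the alternatives).

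**Figure D4:**
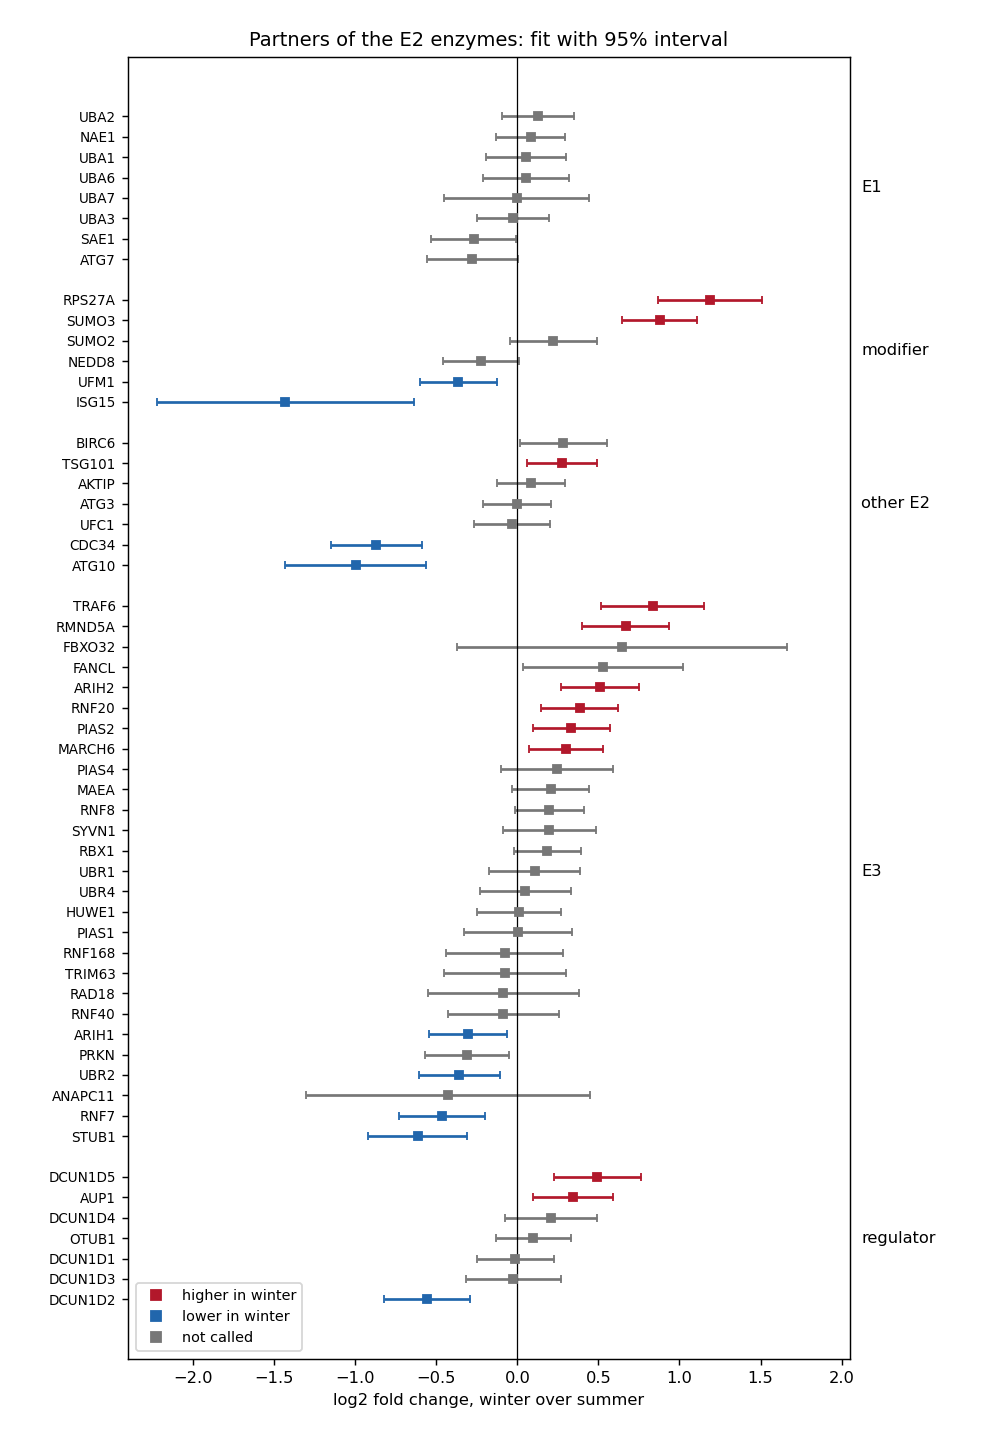
The winter over summer log2 fold change with its 95% interval for 55 tested partners of the E2 enzymes, in the groups E1, modifier, other E2, E3 and regulator. RPS27A lies furthest to the right and ISG15 furthest to the left.

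Of 28 E3 ligases known to work with named E2 enzymes, 7 were higher and 4 were lower, where 19.6% and 21.2% of all genes tested were. MARCH6, a ligase of the endoplasmic reticulum, rose in 6 of 6 bears (log2 fold change 0.30, standard error 0.10, adjusted p = 0.0385), and the regulator AUP1, which recruits UBE2G2, did so too (0.34, adjusted p = 0.0302). The adjusted p of MARCH6 ran from 0.00757 to 0.205 over the alternatives, that of AUP1 from 0.0146 to 0.0905. RMND5A, a core of the CTLH ligase that UBE2H serves, rose (log2 fold change 0.67, standard error 0.12, adjusted p = 0.00156), while its partner MAEA was not called (0.21, adjusted p = 0.149). PIAS2, a SUMO ligase, rose (0.33, adjusted p = 0.0298; 0.00673 to 0.148 over the alternatives). TRAF6, which uses UBE2N for Lys63 chains, was higher in 6 of 6 bears (0.83, adjusted p = 0.00125).

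The 2 ligases of the ARIH family, which take ubiquitin from UBE2L3, were called in opposite directions. ARIH2 rose in 6 of 6 bears (log2 fold change 0.51, standard error 0.11, adjusted p = 0.00403) and ARIH1 was lower in 5 of 6 (log2 fold change −0.30, standard error 0.11, adjusted p = 0.0461; adjusted p 0.0173 to 0.124 over the alternatives). RNF7, the partner of UBE2F, fell in 6 of 6 bears (log2 fold change −0.46, standard error 0.12, adjusted p = 0.0106), and RBX1, the partner of UBE2M, was not called (0.19, adjusted p = 0.14). Among the ligases of UBE2A and UBE2B, UBR2 fell (−0.36, adjusted p = 0.0259; 0.0102 to 0.084 over the alternatives) and RNF20 rose (0.38, adjusted p = 0.0158; 0.00136 to 0.0798), while UBR1, UBR4, RAD18 and RNF40 were not called. STUB1, a ligase that works with chaperones, fell in 6 of 6 bears (−0.61, adjusted p = 0.00522). The muscle ligases TRIM63 (−0.08, adjusted p = 0.743) and FBXO32 (0.64, adjusted p = 0.288) were not called, FBXO32 with a wide 95% interval of −0.38 to 1.66 on the log2 scale.

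Among 7 regulators, DCUN1D5 rose (0.49, adjusted p = 0.00841) and DCUN1D2 fell (−0.56, adjusted p = 0.00416), both cofactors of NEDD8 transfer by UBE2M and UBE2F. OTUB1, which binds and restrains charged UBE2N and UBE2D enzymes, was not called (0.10, adjusted p = 0.476). Of the 7 E2 enzymes with other names, ATG10, which acts in autophagy, fell along with CDC34 in 6 of 6 bears (−0.998, adjusted p = 0.00258), while ATG3 (−0.0015, adjusted p = 0.992) and UFC1 (−0.04, adjusted p = 0.815) were not called. TSG101, an E2-like sorting protein without the active cysteine, was higher in 5 of 6 bears (0.28, adjusted p = 0.046), with 0.0068 to 0.21 over the alternatives.

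Markers of the other cells in a biopsy moved as well. Of 6 fibroblast markers 5 fell and 0 rose, of 6 endothelial markers 5 fell and 0 rose, and of 6 macrophage markers 3 fell and 0 rose (0 higher at an unadjusted p below 0.05, in DESeq2 and in limma voom for each). Of 5 adipocyte markers 1 fell and 0 rose (1 higher in DESeq2 and at an unadjusted p below 0.05, 0 in limma voom), and of 5 lymphocyte markers 2 fell and 1 rose. The part of these cells in the levels of the E2 enzymes was not tested.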

How the data were processed

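Poly-A RNA from vastus lateralis biopsies of 6 bears, taken in winter and summer, was sequenced from TruSeq stranded libraries. The authors deposited unnormalised read counts per gene, made with TopHat2 2.1.1 on ASM358476v1 and featureCounts 1.6.2 from single-end reads, counted by strand. Genes with 30 or more reads summed over the 12 libraries were tested with edgeR 4.0.16 in R 4.3.3: TMM scaling, glmQLFit and glmQLFTest with bear and season as terms, and Benjamini-Hochberg adjustment. DESeq2 1.42.0 and limma 3.58.1 were alternatives, as were the fit without the bear, other scalings and filters, and leaving out each bear. Log2 CPM used a prior count of 2, and the replicates are bears. Pairing came from the animal numbers in the labels. Deviations of the same bear in both seasons correlated at 0.0903 to 0.344. In bear 1509 this value, 0.0903, was below the highest with another bear, 0.122. In every other bear the same-bear value was the higher one. Within a season no libraries were duplicates, as chi-square per gene was at least 35.8 between any pair. Winter libraries were not compared with summer libraries in this way. The test was checked on simulated counts in which fewer genes changed than were called here, by larger steps than most members showed. That check does not cover changes as small as those of most members.

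Read counts of a gene reflect depth and transcript length, so a low member such as UBE2T or UBE2U is measured with little precision, and the split of reads between close paralogues is uncertain. The members and lists were chosen with earlier results of these data known. Full statistics were given for the called members with the largest changes and for UBE2B, UBE2D2, UBE2D3, UBE2J1, UBE2M, UBE2N and UBE2O. Partners were named where called or where they pair with a named member. 1 member and 5 partners count in the totals and are not reported here by name.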

Additional observations from a re-analysis of the deposited data

Results flagged for a closer look

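Among the 64 sets of 6 libraries examined, 1 for each member and season, 4 held a library far from the other 5, and chance alone would single out about 1 in 20. In summer, bear 1317 had the lowest UBE2E1 at 5.20 log2 CPM, with the next library at 5.55. In winter, bear 1509 had the highest UBE2N at 5.92 log2 CPM, with the next at 5.57, and the lowest UBE2QL1 at 3.62, with the next at 4.28. In winter, bear 1511 had the highest UBE2U at 0.15 log2 CPM, which was 17 reads, with the next at −1.97.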

How the results depend on the processing

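Of the 13 called members, 9 were called in every alternative at an adjusted p below 0.05, and UBE2F, UBE2L3, UBE2Z and UBE2G1 lost the call in at least 1. Of 431 log2 fold changes of 31 members under the alternatives, 409 kept their direction and side of the threshold, 11 lost a call (4 members), 5 gained one (3 members) and 6 changed sign (3 members). The number of members lower was 3 to 6 when 1 bear was left out (3 without bear 1305, 1316 or 1317), and of partners higher 9 to 13. With library totals 9 partners were higher and 10 lower, and the median log2 fold change of the members was 0.02, that of all genes −0.08. Without the replicate block 8 members were higher and 6 lower in the unpaired fit, with UBE2R2 added. At an adjusted p below 0.01, 2116 genes were higher and 2327 lower, among them 4 and 2 members and 9 and 5 partners. With the fold limits added the genes were 2115 and 2325, and members (4 and 2) and partners (9 and 5) gave the same counts. Near 0, the log2 fold change of UBE2D2 was −0.0712 with library totals, −0.0057 with no filter, and −0.0582 to 0.0447 with 1 bear left out. That of UBE2G2 was −0.0329 with library totals, and that of UBE2J1 was −0.0415 to 0.0302 with 1 bear left out. The causes were not tested. UBE2T and UBE2U did not pass the filter of edgeR's filterByExpr, nor UBE2U the read minimum without bear 1511, and depth limits what can be said of both.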
